A study of Mus musculus with 10 samples.

Results

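Bivalent islands are places where an interval enriched for H3K4me3 overlaps an interval enriched for H3K27me3, and 1248 of them carried both marks in mouse embryonic stem cells with and without BAF250a. They were chosen from the enriched intervals (islands) called in WT cells for H3K4me3. An island was taken when it lay on an autosome and shared at least 1 bp with an island in each of the other 3 lists, KO H3K4me3, KO H3K27me3 and WT H3K27me3. Every WT H3K27me3 island it touched had to be under 10000 bp wide, which leaves out the wide H3K27me3 domains. The 1248 kept islands were 4.59% of the 27207 autosomal WT H3K4me3 islands (95% exact binomial interval 4.34 to 4.84%) and 42.0% of the 2970 autosomal islands with both marks in WT (40.2 to 43.8%). Of the 2194 such islands under the width limit, they were 56.9% (54.8 to 59.0%). Of the other WT bivalent islands under the width limit, 833 had no H3K27me3 island in KO, 69 had no H3K4me3 island and 44 had neither. A further 776 touched a wider WT H3K27me3 island, and 579 of these had both marks in KO (74.6%).

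H3K4me3 is laid down by the SET1 and MLL methyltransferase complexes and marks promoters, above all those rich in CpG. H3K27me3 is laid down by Polycomb repressive complex 2 and is found at silenced genes. In embryonic stem cells the promoters of many developmental regulators are known to carry both marks while the genes are silent or weakly transcribed, a state called bivalent and regarded as a preparation for differentiation. BAF250a, encoded by Arid1a, is a DNA-binding subunit of the BAF (SWI/SNF) complex, which uses ATP to move and evict nucleosomes. Overlap of islands from separate immunoprecipitations does not show that both marks sit on the same nucleosome or in the same cell. The lists hold positions without gene names, so members are named by position in mm9 and the genes at them were not analysed here.

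The KO cells were labelled BAF250a knockout and had been given 1 µM 4-hydroxytamoxifen for 36 hours from 4 hours after passaging. The WT cells were given ethanol at the same times, so the deletion and the drug cannot be told apart. Both were of mixed 129/C57BL/6 strain and were grown in serum and LIF on embryonic fibroblast feeders, whose part in the chromatin was not tested; the labels used here name neither the deleted allele nor the recombinase. Each mark had 1 KO and 1 WT library, so every difference below compares 2 libraries, has no replicate check and carries no p-value. The members were chosen by the calls themselves, so their differences between genotypes are descriptions.

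The H3K4me3 islands touching the members were 1248 of 40978 in KO and 1248 of 28365 in WT, and held 419045 reads in KO (3.10% of the reads in that list) and 352120 in WT (3.68%). The H3K27me3 lists are shorter, and the islands touching the members were 1474 of 6833 in KO and 1558 of 8067 in WT. They held 150540 reads in KO (17.9%) and 211518 in WT (18.5%). Library totals are not given in the lists, so depth is known only relative to input. ChIP depth was 1.35 times input depth for KO H3K4me3 and 1.78 times for WT H3K4me3, and 1.03 times for KO H3K27me3 and 1.68 times for WT H3K27me3. For this reason genotypes were compared by fold over input, the ChIP reads of an island divided by its input reads after correction for these depths.

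H3K4me3 at the members was moderate in strength and was higher over input in the KO library. The median fold over input was 4.25 in KO (middle 50% of members 3.31 to 5.70) and 2.65 in WT (1.97 to 3.74). The median read count was 261.5 in KO and 197.5 in WT. Pooled over the members, the fold was 4.84 in KO and 3.20 in WT, in both genotypes below the pooled fold of the whole list, 5.65 in KO and 4.16 in WT. By fold over input the members were thus lower in H3K4me3 than the whole list of each genotype. Over all autosomal shared H3K4me3 islands the median fold was 5.33 in KO and 2.98 in WT, also above that of the members. The median read count there was 378 in KO and 156 in WT, so by reads, without regard to width, the members were lower in KO and higher in WT. By reads per called kb the members were lower in both genotypes. Their medians were 71.5 in KO and 62.7 in WT, against 85.9 in KO and 66.0 in WT over the shared islands.

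**Figure D1:**
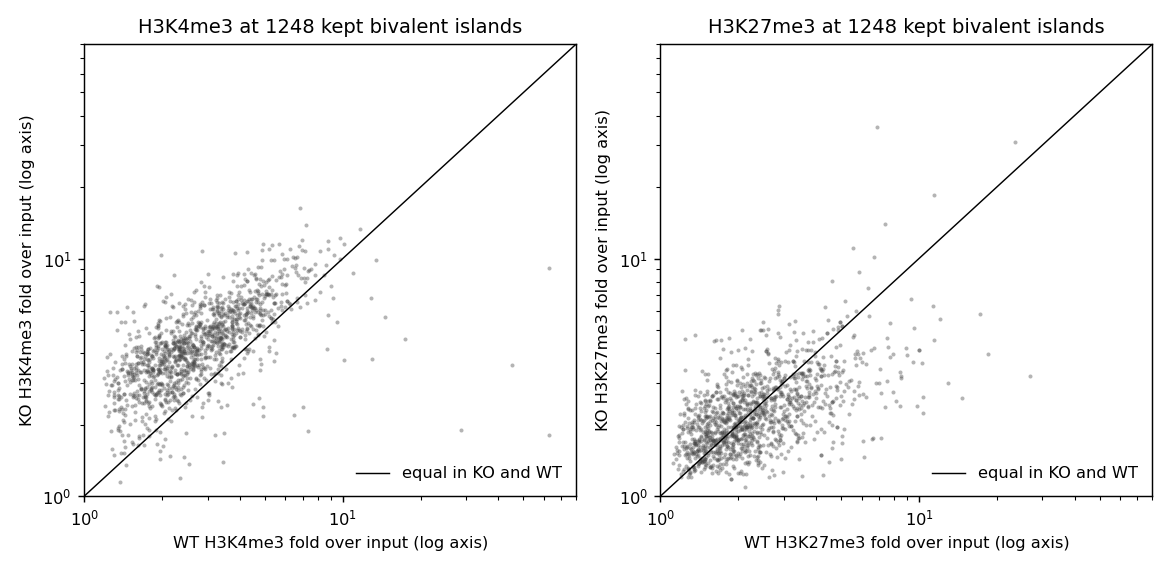
Fold over input of the 1248 kept bivalent islands, with WT on the horizontal and KO on the vertical log axis, for H3K4me3 (left) and H3K27me3 (right); each point is 1 member and the line marks equal values. For H3K4me3, 1156 points lie above the line and 92 below; for H3K27me3, 601 lie above and 647 below.

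The median log2 KO over WT ratio of H3K4me3 fold was 0.64 (middle 50% 0.36 to 0.92). It was higher in KO at 1156 of 1248 members (92.6%), against a background of 90.7% over the 25693 autosomal WT H3K4me3 islands that touched a KO island and had 20 or more reads in both libraries. By 1.5-fold or more it was higher at 691 members (55.4%), against a background of 58.2%, and lower at 25 (2.00%), against 2.48%. The shares at the members therefore lie near those of all shared H3K4me3 islands, whose median ratio was 0.69. The higher fold was thus seen over the shared islands in general. When reads were scaled to the total of all shared H3K4me3 regions, which removes such a general difference, the median at the members was -0.12, and scaled per called kb it was 0.042. Thus the direction at the members depends on the scale.

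At 28 members the KO and WT H3K4me3 islands had identical ends, so that width plays no part. The pooled fold there was 4.21 in KO and 2.39 in WT, a ratio of 1.76, and 25 of the 28 were higher in KO. Input reads over the same bases were 0.875 times as many in KO as in WT. For H3K27me3, the KO and WT islands had identical ends at 7 members. The pooled H3K27me3 fold there was 2.70 in KO and 3.55 in WT, a ratio of 0.761. Of the 7, 3 were higher in KO, and the median log2 KO over WT ratio of fold was -0.32. Input reads over these bases were more numerous in KO, and their part in the ratio was not tested. These 7 are too few to stand for all members.

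**Figure D2:**
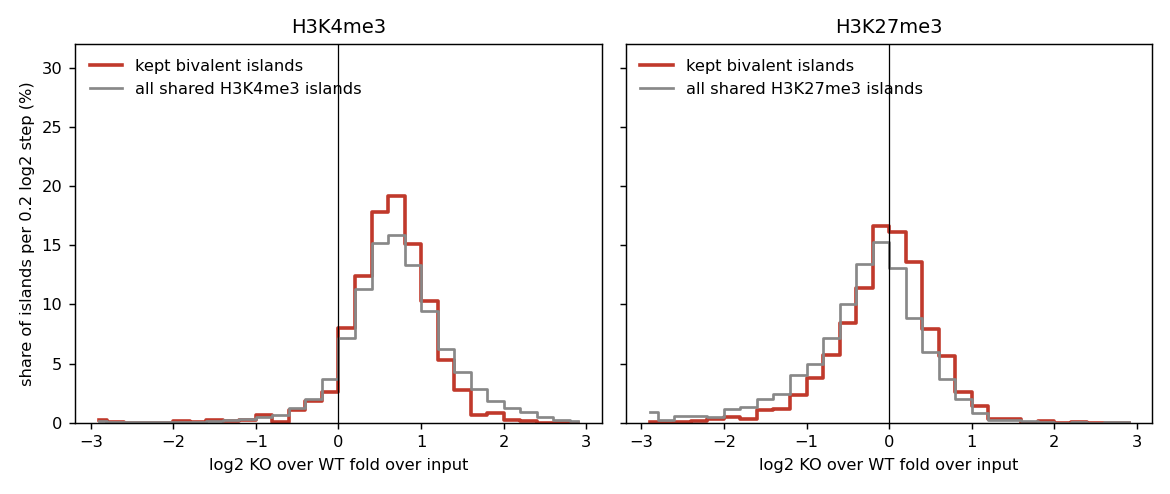
Share of islands, in percent, in each 0.2 step of the log2 KO over WT ratio of fold over input, for H3K4me3 (left) and H3K27me3 (right); the red line is the kept bivalent islands and the grey line all autosomal shared islands of the mark, with values beyond 3 put in the end steps. For H3K4me3 both lines peak above 0, with medians of 0.64 and 0.69; for H3K27me3 the medians are -0.025 and -0.19. The grey H3K27me3 line takes WT islands 1 at a time, while a member sums all WT H3K27me3 islands it touches.

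At the members, H3K4me3 islands were more often wider than narrower in KO. The median called width was 3600 bp in KO and 3200 bp in WT. Of the 1248 members, 728 were wider in KO (58.3%), against a background of 77.1% over 25769 shared islands. Another 422 were narrower in KO (33.8%), against a background of 15.7%, and 98 were equal. The median log2 KO over WT width was 0.13 at the members and 0.42 over all shared islands, whose median WT width was 2600 bp. The smaller value was not particular to the members. It was 0.12 at the 579 islands with both marks kept and a wider WT H3K27me3 island. At the 833 islands with no H3K27me3 island in KO it was 0.27. No test of these differences was made, since width was part of calling the islands. In 114 members the KO island also touched another WT H3K4me3 island, and its full width was counted.

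The members were also divided into 5 groups by their WT H3K4me3 reads alone. In the group of members with fewest reads (20 to 95), the median H3K4me3 fold was 3.13 in KO and 1.86 in WT, and the median width was 2000 bp in KO and 1400 bp in WT. In the group with most reads (421 to 2893), the fold was 6.18 in KO and 4.35 in WT, and the width 6600 bp in KO and 6400 bp in WT. The groups were set by WT reads, which go with WT width, so no trend in the width difference is read from them. The median H3K27me3 fold ranged little across the 5 groups, 1.97 to 2.32 in KO and 2.05 to 2.27 in WT.

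The members with most H3K4me3 reads, summed over the 2 libraries, were long islands. The first, chr13:22103401-22123000, held 4341 H3K4me3 reads at 9.35-fold in KO and 2392 reads at 8.62-fold in WT, with 145 H3K27me3 reads at 2.77-fold in KO and 184 at 2.07-fold in WT. At chr13:63661401-63676000, H3K4me3 was 8.58-fold over 21.6 kb in KO and 4.59-fold over 14.6 kb in WT, while the H3K27me3 island covered 3.4 kb in KO and 9.4 kb in WT. At chr11:68921401-68941800, the widest member, the H3K4me3 fold was 7.08 in KO and 5.08 in WT. In these 3 the H3K4me3 fold was higher in KO, and the H3K27me3 reads were fewer in KO without correction for depth. By fold over input, H3K27me3 was higher in KO at the first and also at the second, 1.60 against 1.47 in WT. At the third it was lower in KO, 2.01 against 2.35 in WT. The other members of this group were chr9:35364601-35383400, at 10.4-fold in KO and 9.24-fold in WT, and chr13:23389001-23405800, at 6.83-fold in KO and 6.64-fold in WT.

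The highest KO over WT ratios of H3K4me3 fold were close to each other in size, between 1.92 and 1.97 on the log2 scale, among the 966 members with 100 or more H3K4me3 reads in each library. At chr5:64202801-64205000 the island held 205 reads over 20 input reads in KO and 142 over 41 in WT, which gave folds of 7.62 in KO and 1.95 in WT (log2 ratio 1.97, counting SE 0.42). At chr9:122201801-122204400 the folds were 8.51 in KO and 2.22 in WT. These islands had similar widths in the 2 genotypes, 2.4 kb in KO and 2.2 kb in WT at the first, and 3 kb in KO and 2.6 kb in WT at the second. A different form was seen at chr18:84260801-84263200, where a KO island of 11.2 kb held 1037 reads at 5.39-fold and the WT island of 2.4 kb held 128 reads at 1.38-fold. Any other WT H3K4me3 islands under that KO island were not counted. The remaining ones were chr5:98756601-98759600, at 5.94-fold in KO and 1.55-fold in WT, and chr2:21062601-21064800, at 10.8-fold in KO and 2.86-fold in WT. The KO library had between 13 and 143 input reads, the most at the 11.2 kb KO island, and the WT library between 34 and 59. In all 5 the input reads per kb were lower in KO. In the order named, they were 8.33 in KO and 18.6 in WT, 8 in KO and 22.7 in WT, and 12.8 in KO and 21.7 in WT. At the last ones they were 6.92 in KO and 19.3 in WT, and 7.22 in KO and 15.5 in WT. The part of the input counts in these high ratios was not tested.

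Few members had a clearly lower H3K4me3 fold in KO. Among the 966 members with 100 or more H3K4me3 reads in each library, the lowest ratio was at chr3:95848401-95849000, a 600 bp island identical in both genotypes, with 118 reads over 40 input reads in KO and 138 over 12 in WT. Its folds were 2.19 in KO and 6.46 in WT (log2 ratio -1.56, counting SE 0.51), and its H3K27me3 fold was also lower in KO, 5.56 against 12.0 in WT. At chr1:14297601-14302000 the folds were 6.84 in KO and 12.9 in WT, and at chr2:6790601-6795600 they were 5.42 in KO and 9.49 in WT. At these 3 the H3K4me3 reads differed little (322 in KO and 389 in WT at the second, 481 in KO and 439 in WT at the third), while input reads were higher in KO, 35 against 17 in WT and 66 against 26 in WT. The part of the input counts in these ratios was not tested. The H3K27me3 fold, which shares its input library with H3K4me3, was 3.63 in KO and 10.3 in WT at the second and 2.65 in KO and 5.87 in WT at the third. The others were chr13:119501401-119510400, at 5.76-fold in KO and 8.73-fold in WT, and chr2:52529201-52533000, at 3.38-fold in KO and 4.78-fold in WT.

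H3K27me3 over input was close to equal in the 2 libraries at the median member. The median fold was 2.17 in KO (middle 50% 1.73 to 2.76) and 2.16 in WT (1.67 to 3.08). The median read count was 99 in KO and 161 in WT, at 21.0 reads per kb in KO and 30.0 in WT, without correction for depth. The median log2 KO over WT ratio of fold was -0.025 (middle 50% -0.38 to 0.30). H3K27me3 fold was higher in KO at 601 members (48.2%), against a background of 35.3% over the 3797 autosomal WT H3K27me3 islands that touched a KO island.

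Past 1.5-fold, H3K27me3 was higher in KO at 136 members (10.9%), against a background of 7.64%, and lower at 198 (15.9%), against 26.6%. The median ratio was -0.19 over all shared H3K27me3 islands, taken 1 WT island at a time. It was -0.14 over the 579 islands with both marks kept and a wider WT H3K27me3 island, summed as at the members. Over the 1827 islands with both marks in both genotypes at any WT width, members included and summed in the same way, it was -0.069. Input density also differed between these sets. The median log2 KO over WT ratio of input reads per kb was 0.19 at the members, 0.45 over all shared H3K27me3 islands and 0.15 over the 1827 islands. The part of input in the differences between the sets was not tested. Scaled by reads per called kb, with no use of input, the median at the members was -0.013 relative to all shared regions, and 23 members were lower and 14 higher by 1.5-fold or more. Scaled by total reads, 320 were lower and 245 higher. These counts are out of 1248 members, and no share over all shared islands was computed on these 2 scales.

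H3K27me3 islands at the members were about as often wider as narrower in KO. The median called width of the islands touching a member was 4800 bp in KO and 5400 bp in WT. At 566 members the width was larger in KO (45.4%), against a background of 62.5% over all shared H3K27me3 islands, and at 642 it was smaller (51.4%), against 34%. The background took WT islands 1 at a time, while a member summed all WT H3K27me3 islands it touched, so the shares are not in like units. Summed as at the members, 1827 autosomal WT H3K4me3 islands had both marks in both genotypes at any WT width, the members among them. Their median log2 KO over WT H3K27me3 width was -0.22, below that of the members. The rule capped the width of WT islands and not of KO islands, and 56 members touched a KO island of 10000 bp or more. Leaving these out gave a median log2 KO over WT width of -0.096, beside -0.056 with all members. The median was -0.16 at the 968 members that touched 1 KO H3K27me3 island.

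**Figure D3:**
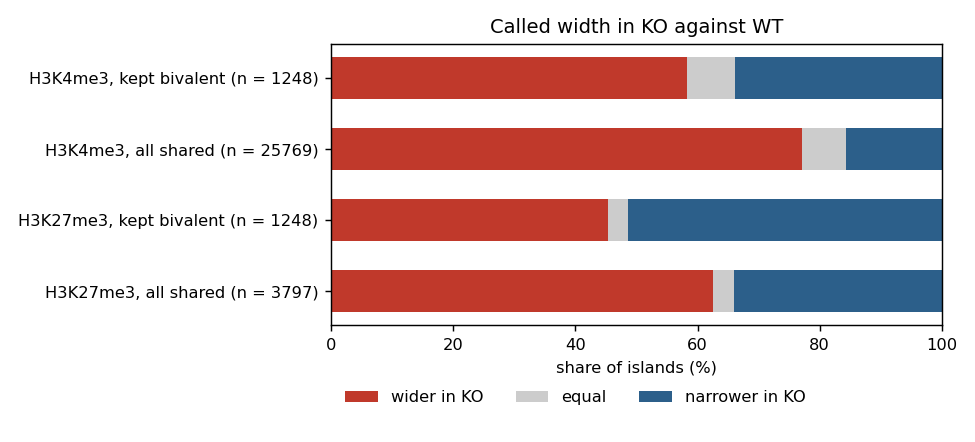
Share of islands, in percent, whose called width was larger, equal or smaller in KO than in WT, for the kept bivalent islands and for all autosomal shared islands of each mark. H3K4me3 was wider in KO at 58.3% of members and 77.1% of all shared islands; H3K27me3 was wider in KO at 45.4% and 62.5%.

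The members with most H3K27me3 reads were ranked by the sum of the KO and WT reads, unscaled, so a wide island in 1 library alone can put a member among them. At chr5:14960201-14964600, H3K27me3 covered 65.6 kb in KO with 3670 reads at 1.62-fold and 5.2 kb in WT with 466 reads at 2.72-fold, and the KO island held 2202 input reads. At chr2:74600201-74602600, H3K27me3 covered 68.2 kb in KO with 2066 reads at 2.60-fold and 10 kb in WT with 439 reads at 3.63-fold. At chr14:5490001-5494200 it covered 47.6 kb in KO with 1071 reads at 1.51-fold and 3.4 kb in WT with 122 reads at 1.37-fold. At these 3 the KO islands touching the member were far wider than the WT islands touching it. Any other WT H3K27me3 islands under the KO span were not counted, so these widths do not show whether the mark spread in KO. The other 2 had similar widths in both genotypes. At chr3:30405401-30415600, H3K27me3 covered 18.2 kb at 2.70-fold in KO and 19 kb at 2.30-fold in WT, and the H3K4me3 fold was 4.04 in KO and 2.60 in WT. At chr18:11047601-11057200 the H3K27me3 fold was 2.41 in KO and 2.16 in WT.

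Among the 1145 members with 50 or more H3K27me3 reads in each library, the highest KO over WT ratios of H3K27me3 fold lay between 1.28 and 2.38 on the log2 scale. The first, chr16:86821001-86821600, rested on 3 input reads in KO and 12 in WT, with folds of 35.7 in KO and 6.86 in WT and a counting SE of 0.95. At chr6:99468601-99474200 H3K27me3 held 111 reads over 24 input reads in KO and 302 over 112 in WT, folds of 4.50 in KO and 1.61 in WT (log2 ratio 1.49, counting SE 0.36), and the H3K4me3 folds were 6.06 in KO and 3.27 in WT. At chr3:145420801-145423600 the H3K27me3 folds were 4.55 in KO and 1.64 in WT, and the H3K4me3 folds 6.42 in KO and 1.71 in WT. At chr10:4422601-4427400 the H3K27me3 folds were 4.62 in KO and 1.83 in WT, and at chr1:131169401-131170800 they were 5.02 in KO and 2.06 in WT. The H3K4me3 folds there were 7.06 in KO and 2.17 in WT, and 3.22 in KO and 1.24 in WT. At the chromosome 16 member they were 16.3 in KO, on 1 input read, and 6.86 in WT. H3K27me3 was higher over input in KO at these members because they were chosen for it. H3K4me3 was also higher over input in KO at each of them, as it was at 92.6% of all members. The marks share an input, whose reads per kb under both were lower in KO at each, and the part of input was not tested.

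Among the same 1145 members, the 5 lowest H3K27me3 ratios had between 2 and 9 WT input reads. At chr8:129585401-129592400 H3K27me3 held 57 reads over 14 input reads in KO and 62 over 2 in WT, folds of 3.96 in KO and 18.5 in WT (log2 ratio -2.22, counting SE 1.12). At chr5:107000801-107005200 it held 115 reads over 50 input reads in KO and 104 over 6 in WT, folds of 2.24 in KO and 10.3 in WT, while H3K4me3 there was 10.9-fold in KO and 4.87-fold in WT. At chr2:121629801-121635200 the H3K27me3 folds were 1.76 in KO and 7.15 in WT. In each of these the H3K27me3 islands touching the member covered more in KO, 3.2 kb against 2.2 kb in WT, 6.6 kb against 2.4 kb in WT, and 7 kb against 2.4 kb in WT. The other 2 were chr11:110197201-110200200, at 2.60-fold in KO and 10.4-fold in WT, and chr5:77084401-77089000, at 1.76-fold in KO and 6.66-fold in WT. With 20 or more input reads required in each library, 964 members in place of 1248 were counted. Of these, 91 in place of 198 were lower in KO by 1.5-fold or more, and 99 in place of 136 were higher. The share over all shared islands was not computed with this minimum.

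**Figure D4:**
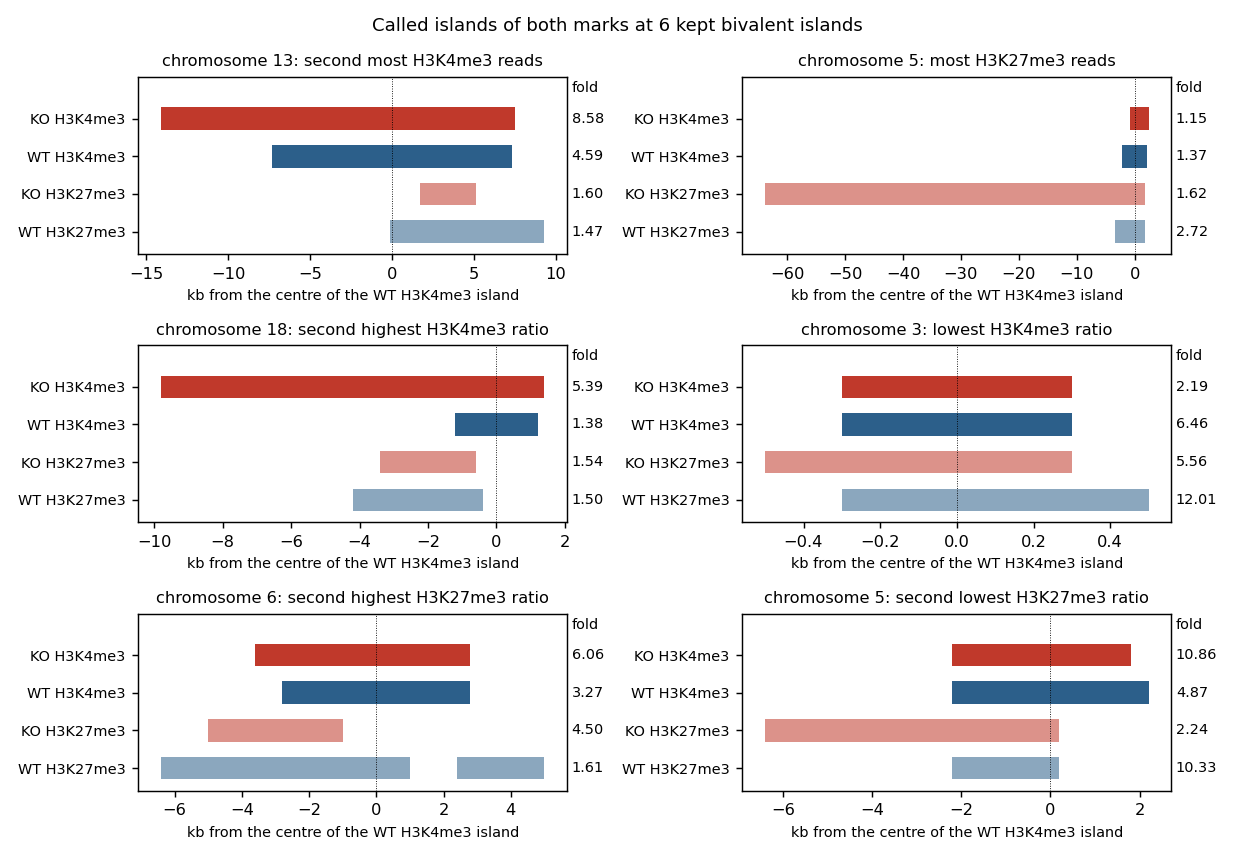
Called islands at 6 members, with distance in kb from the centre of the WT H3K4me3 island on the horizontal axis and 1 row for each list; bars span the islands that touch the member, and the number at the right is their fold over input. Islands that do not touch the member are not drawn. At the member on chromosome 18 the H3K4me3 bar is 11.2 kb long in KO and 2.4 kb in WT, and at the member with most H3K27me3 reads, on chromosome 5, the H3K27me3 bar is 65.6 kb long in KO and 5.2 kb in WT.

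Of the 5 members with the highest product of all 4 folds, 4 had a WT H3K4me3 island of 1.2 kb or less. At chr5:37051801-37052800, 1 kb wide, H3K4me3 was 8.67-fold in KO and 11.0-fold in WT and H3K27me3 31.0-fold in KO and 23.4-fold in WT, with 9 input reads in KO and 7 in WT under each mark. At chr7:69566601-69567800 the H3K4me3 island covered 6 kb in KO and 1.2 kb in WT, at 11.6-fold in KO and 10.1-fold in WT, and H3K27me3 was 6.74-fold in KO and 9.33-fold in WT. At chr1:52554001-52560000 all 4 folds lay between 6.68 and 10.1. The other 2 were the chromosome 16 member above and chr3:14575601-14576400, where the WT H3K4me3 island held 28 reads and 0 input reads and the KO island 838 reads.

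Most pairs of touching H3K4me3 and H3K27me3 islands at the members overlapped in part. These are counts of pairs, and a member can add several. In KO, 1194 of 1533 pairs of touching H3K4me3 and H3K27me3 islands overlapped in part (77.9%), and in WT 1131 of 1617 pairs did (69.9%). The H3K4me3 island lay inside the H3K27me3 island in 231 pairs in KO (15.1%) and 339 in WT (21.0%). The reverse was seen in 105 pairs in KO (6.85%) and 146 in WT (9.03%). Counted by member, 340 (27.2%) lay wholly inside WT H3K27me3 islands. At 216 members (17.3%) the KO H3K4me3 islands lay wholly inside KO H3K27me3 islands. The part of the WT width limit in these shares was not tested, and none was computed for other bivalent islands. The bases under both marks had a median of 1900 bp in KO and 1900 bp in WT. As a share of the H3K4me3 islands they were 50.0% in KO and 65.0% in WT, and as a share of the H3K27me3 islands 36.8% in KO and 38.5% in WT. The centres of both marks were 1900 bp apart in KO and 1300 bp apart in WT, as medians. By the rule the marks overlap each other at every member in WT. In KO each mark had only to touch the WT H3K4me3 island. This favours a larger overlap in WT, and its part in the differences between genotypes was not tested.

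Each member touches islands of all 4 lists by the rule, which makes a stretch common to all of them likely. At 1187 of 1248 members (95.1%) at least 1 window of 200 bp lay inside islands of all 4 lists, with a median of 1200 bp. In KO, 1234 members had islands of both marks that shared a base, while at the other 14 each mark touched the WT H3K4me3 island without touching the other. At 38 members the KO and WT H3K27me3 islands shared no base. The doubly marked stretch was longer in KO at 534 members, shorter at 620 and equal at 94. The rule sets such a stretch in WT and not in KO, and no such counts were made for other bivalent islands. No difference between genotypes is therefore read from these counts.

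The extent of H3K4me3 was closer between the genotypes than that of H3K27me3. The bases called in both genotypes, as a share of those called in either, had a median of 0.762 for H3K4me3 and 0.533 for H3K27me3. Over all shared islands, taken 1 WT island at a time, these medians were 0.673 for H3K4me3 and 0.526 for H3K27me3. A member can hold more than 1 WT H3K27me3 island, so for that mark the units differ. Across the 1248 members, KO and WT widths had a Spearman rho of 0.74 for H3K4me3 (Pearson r 0.71) and 0.32 for H3K27me3 (r 0.30), as descriptions, since members share libraries and depth. For fold over input rho was 0.69 for H3K4me3 (r 0.63) and 0.56 for H3K27me3 (r 0.58). Between the marks, reads per kb had a rho of -0.020 in KO and -0.015 in WT. H3K27me3 was called with a larger gap and from fewer reads than H3K4me3, and the part of this in the difference between the marks was not tested.

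The number of H3K27me3 islands at a member also varied. In KO 968 members touched 1 H3K27me3 island and 278 touched 2, and in WT 889 touched 1 and 349 touched 2. H3K4me3 was less divided, with 1 KO island at 1211 members and 2 at 37. Members were not all separate places. Of them, 116 shared a WT H3K27me3 island with another member, and 137 had another member within 10000 bp.

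Bivalent islands of the other classes had less, about as much or more H3K27me3 in WT. The median was 161 WT H3K27me3 reads over 5400 bp at the members and 77 reads over 3000 bp at the 833 islands with no H3K27me3 island in KO. At the 69 islands with no H3K4me3 island in KO it was 174 reads over 5400 bp, and at the 579 wider islands that kept both marks 855 reads over 20800 bp. These classes were set by the calls, which depend on reads, so the order is a property of the selection. In H3K4me3 fold the members, with medians of 4.25 in KO and 2.65 in WT, were near the 833 islands, with 4.69 in KO and 2.90 in WT, and both had a median log2 KO over WT ratio of 0.64. The 579 wider islands had lower H3K4me3 folds, 2.90 in KO and 1.94 in WT.

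The islands nearest the 10000 bp limit on either side are given as values. Just inside it, chr1:175296201-175299200 had an H3K27me3 fold of 1.96 in KO and 1.91 in WT, and chr2:123915801-123917000 had 4.12 in KO and 3.66 in WT. The third was the chromosome 3 member at 30405401, described above, with 2.70 in KO and 2.30 in WT. Each touched a WT H3K27me3 island of 9800 bp. Just outside, at 10000 bp, chr1:168184001-168185000 had an H3K27me3 fold of 1.35 in KO and 2.40 in WT, chr3:17952601-17957600 had 2.98 in KO and 3.82 in WT, and chr6:30907801-30912600 had 3.73 in KO and 5.60 in WT. The fold was higher in KO at the 3 just inside and lower in KO at the 3 just outside, which are too few to compare the sides.

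Members were found on all 19 autosomes. They made up from 2.35% of the WT H3K4me3 islands on chromosome 7 (47 members, exact binomial interval 1.73 to 3.11%) to 6.78% on chromosome 18 (55 members, 5.15 to 8.74%). Chromosome 4 held most members, 106, which were 5.06% of its WT H3K4me3 islands. It also had the most WT bivalent islands, 364, and its members were 29.1% of these, the lowest such share. Of its 202 WT bivalent islands under the width limit, they were 52.5%. The median H3K4me3 log2 KO over WT fold was above 0 on each of the 19 autosomes, from 0.51 on chromosome 18 to 0.73 on chromosome 9. The H3K27me3 median was above 0 on 9 of the 19, from -0.22 on chromosome 4 to 0.12 on chromosome 14.

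**Figure D5:**
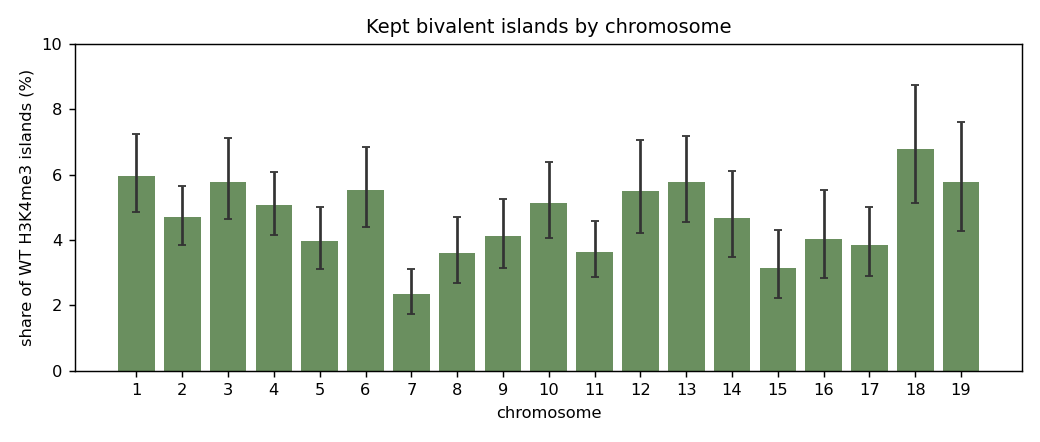
Kept bivalent islands as a percentage of the WT H3K4me3 islands of each autosome; bars are shares and lines their 95% exact binomial intervals, which cover counting error only. Chromosome 7 is lowest at 2.35% and chromosome 18 highest at 6.78%.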

How the data were processed

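Of 10 samples, the 4 ChIP libraries were analysed; micrococcal nuclease and input libraries had no lists of their own here. The title of the KO H3K27me3 library spells the mark differently from its antibody label, which was followed. The submitters' processing notes name Bowtie, SICER 1.1 and mm9. Per the file names and their layout, islands were called with 200 bp windows, gaps of 200 bp (H3K4me3) and 600 bp (H3K27me3) and an FDR of 0.05; how reads were filtered is not given in the sources used here. The authors deposited ChIP and input read counts per island, unscaled. The p-values and adjusted p-values were made by the authors from those counts in island calling. The deposited fold, also made by the authors, equals the ratio of ChIP to input counts times 1 constant per list, with 0.25 for an input of 0. Input counts were equal at 4 of 4 intervals shared by both marks in KO and 11 of 11 in WT, so both marks share an input.

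Starts and ends were raised by 1. For each member, reads, input and width were summed over the islands of a list that touched it. Ratios were counted with 20 or more reads per library. Intervals and SEs cover counting error only. Positions named are, by rule, the 5 members with most reads of each mark, the highest product of folds and the highest and lowest ratios (100 H3K4me3 or 50 H3K27me3 reads per library), and 3 on each side of the width limit. The members and lists were chosen with earlier results of these data known. Python 3.11.15, numpy 2.4.6, pandas 2.3.3, scipy 1.17.1 and matplotlib 3.10.9 were used; 3 overlaps checked against bedtools 2.31.1 differed by 0 islands, and simulated reads were used to test how ratios are computed. Base composition, sequences and gene names need mm9 and were not analysed here.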

Additional observations from a re-analysis of the deposited data

How the results depend on the processing

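Over 93 alternatives, 51 values stayed inside the rank-based interval of their median or changed a count by at most 1.5 times; 41 did not, and 1 changed sign beyond that interval; causes were not tested, except that stricter lists leave fewer islands. The number of members was 596 where islands had to overlap over 50% of the smaller one, 821 at an adjusted p of 1e-05, 496 with a fold of 2 in every list and 691 with a width limit of 5000 bp. The median H3K4me3 log2 ratio was 0.61, 0.61 and 0.56 under the first 3 of these, -0.12 by scaled reads (the changed sign) and 0.042 by scaled reads per kb. H3K4me3 higher by 1.5-fold counted 306, 425, 239 and 387 members under the same 4 settings, 127 by scaled reads and 94 per kb. H3K4me3 lower by 1.5-fold counted 15 at an adjusted p of 1e-05, 13 with a fold of 2, 13 with 5000 bp, 43 of 1549 with 20000 bp and 148 of 1248 by scaled reads. It counted 13 of 1157 with 50 reads, 15 of 1189 with members sharing a WT H3K27me3 island merged, and 4 of 1052 with 20 input reads. The median H3K27me3 log2 ratio was -0.080 at an adjusted p of 1e-05, -0.14 with a fold of 2, -0.069 with 5000 bp and -0.13 by scaled reads; it also changed sign, to 0.012, with 20 input reads, within its interval. H3K27me3 higher by 1.5-fold counted 75, 73, 31 and 67 under the 4 settings, 245 by scaled reads and 14 per kb. H3K27me3 lower counted 114 with 50% overlap, 106 with a fold of 2, 320 by scaled reads, 23 per kb and 91 with 20 input reads. Each count is out of the members left under its setting, and no share over all shared islands was computed for these settings. The median log2 H3K4me3 width ratio was 0.093 at an adjusted p of 1e-05 and 0.093 with members taken from the KO list. The H3K27me3 width ratio was -0.16 with 1 KO island and -0.22 with members from the KO list. The settings with 20 input reads, members from the KO list, chromosome 4 left out, KO islands also under the limit and overlapping KO and WT H3K27me3 islands were chosen after seeing the data. No paired analysis was possible because each mark has 1 library per genotype; numbered replicates exist for nuclease libraries only, which had no lists here. Depth limits single ratios: the median member had 99 H3K27me3 reads and 45.5 input reads in KO.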

Other observations

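Seen from the KO list, the mirrored choice gave 1447 islands, namely KO H3K4me3 islands on autosomes that touched islands of the other 3 lists and no KO H3K27me3 island of 10000 bp or more. Their median log2 KO over WT fold was 0.63 for H3K4me3 and -0.024 for H3K27me3, beside 0.64 and -0.025 at the 1248 members. H3K4me3 width had a median log2 KO over WT ratio of 0.093 and H3K27me3 width of -0.22, beside 0.13 and -0.056 at the members.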
